A study of Mus musculus with 6 samples.

Results

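The 10 genes described here code for inhibitors of MAP kinase signalling, 8 of them MAP kinase phosphatases (Dusp1, Dusp2, Dusp4, Dusp5, Dusp6, Dusp7, Dusp10 and Dusp16) and 2 of them Sprouty proteins (Spry1 and Spry2). They were taken by symbol from an expression table with 26082 different gene names, and all 10 had an entry under their own symbol. Dusp4 stood on 2 lines, which were summed. The genes were chosen with results of the vehicle and DS-5272 comparison already known, so their differences in that comparison are given as a description, without a test.

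MLL-AF9 leukemia is a mouse model of acute myeloid leukemia (AML), in which bone marrow progenitors that express c-Kit are retrovirally transduced with the MLL-AF9 fusion oncogene and transplanted from mouse to mouse. DS-5272 blocks the binding of MDM2 to p53, and gene expression was profiled to learn what this p53 activation changes in the leukemia cells. Leukemic mice of the C57BL/6J strain received vehicle or 80 mg/kg DS-5272 by mouth, and 24 h later leukemia cells were sorted from bone marrow for RNA-Seq. Each group had 3 samples, numbered 1 to 3. All 6 samples carried the MLL-AF9 transgene, and the labels name no other altered allele. The cells came from an engineered leukemia that was passaged through mice, which limits the groups as a model of AML. Where 3 values are given for a group, they stand in the order of the replicate numbers 1, 2 and 3. The labels do not say whether each sample came from a single mouse, so the errors below measure the spread between these samples.

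The MAP kinases ERK, JNK and p38 are switched on when upstream kinases phosphorylate a threonine and a tyrosine in their activation loop, and dual-specificity phosphatases remove both phosphates. Dusp6 and Dusp7 are cytoplasmic and Dusp5 is nuclear, and all 3 act chiefly on ERK, while Dusp10 and Dusp16 act chiefly on JNK and p38. Dusp1, Dusp2 and Dusp4 are nuclear enzymes encoded by rapidly inducible genes, and Sprouty proteins dampen the signal from growth factor receptors to RAS and ERK. Several of these genes are themselves transcribed when ERK is active, which makes them part of a negative feedback loop. In myeloid leukemia the RAS and ERK cascade is known as a frequent site of activating mutations.

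The promoter sequences of 9 members were found in the RefSeq table of GRCm38.p6. The 250 bases before 1 transcription start per gene were searched on both strands. The window of Dusp7 (chr9:106368382-106368631) reaches into the gene span given below. That of Dusp16 (chr6:134792629-134792878) lies wholly inside its gene span, so the bases before that span were not searched. The search covered the CRE (TGACGTCA), the AP-1 site (TGANTCA), the ETS core (CCGGAA), the TATA box (TATAAA), the SRF CArG box, the p53 decamer and the NF-kB site. Dusp5 held 2 CArG boxes and Dusp1 held 1 CRE, and the other 7 windows held none of these letters. The CArG box is the site bound by serum response factor and the CRE is the site bound by CREB, both known for rapid induction of genes by extracellular signals. Of all 32851 promoter windows of this length, 1.47% held a CArG box and 1.55% held a CRE. The shares were 6.75% for the AP-1 site, 12% for the ETS core, 12.4% for the TATA box, 7.13% for the p53 decamer and 3.9% for the NF-kB site. The 2 CArG boxes of Dusp5 lie next to each other without overlap, with first bases 82 and 72 bases before the start, and the CRE of Dusp1 begins 143 bases before the start. A match of letters is a description of the sequence and not evidence of binding. The windows of Dusp5 (chr19:53528895-53529144, plus strand) and Dusp1 (chr17:26508473-26508722, minus strand) are shown because they hold a searched motif, in capitals. That of Dusp6 (chr10:99262981-99263230, plus strand) is shown as the window of the gene with the largest difference, with none of the motifs.
Dusp5: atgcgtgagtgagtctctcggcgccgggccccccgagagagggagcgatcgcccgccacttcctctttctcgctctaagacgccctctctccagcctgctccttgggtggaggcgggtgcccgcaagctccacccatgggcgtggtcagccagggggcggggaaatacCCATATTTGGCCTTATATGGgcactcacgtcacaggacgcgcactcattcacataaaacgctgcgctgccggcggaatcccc
Dusp1: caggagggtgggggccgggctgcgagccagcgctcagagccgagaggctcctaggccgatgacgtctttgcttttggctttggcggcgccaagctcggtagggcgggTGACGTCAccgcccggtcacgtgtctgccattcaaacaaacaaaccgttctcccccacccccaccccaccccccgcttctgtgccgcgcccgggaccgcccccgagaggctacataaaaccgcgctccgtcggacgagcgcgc
Dusp6: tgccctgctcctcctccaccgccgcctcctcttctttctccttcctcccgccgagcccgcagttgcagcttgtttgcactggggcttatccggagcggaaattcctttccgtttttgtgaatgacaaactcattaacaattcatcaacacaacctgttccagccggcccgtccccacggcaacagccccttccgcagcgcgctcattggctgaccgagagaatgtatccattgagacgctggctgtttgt

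The deposited values are FPKM, fragment numbers divided by transcript length and by library size, so levels can be compared between genes per length. FPKM sums over all genes ran from 445316 to 501241 in the vehicle samples and from 499229 to 661184 in the DS-5272 samples. Depth relative to vehicle replicate 1, read from the steps of low FPKM values, was 0.808 and 0.885 in the other vehicle samples and 0.539 to 0.746 in the DS-5272 samples, so low values carry more counting error with DS-5272. Among the p53 targets, Mdm2 was 27.1, 36.3 and 40.0 FPKM with vehicle and 42.6, 78.8 and 209.6 FPKM with DS-5272. Its log2 difference was 1.36 (SE 0.53, adjusted p = 0.0733 from limma, 0.0148 with the replicate number as a block). Cdkn1a, the p21 gene, was 14.8, 28.1 and 25.4 FPKM against 32.2, 117 and 485 FPKM (log2 difference 2.43, SE 0.89, adjusted p = 0.0611, 0.0137 with the block). Of the leukemia markers, Meis1 (66.1 to 109.9 FPKM) and Pbx3 (127.8 to 158.1 FPKM) were present in every sample, while Mef2c was at 0.098 to 2.45 FPKM, and Hoxa7, Hoxa9 and Hoxa10 lie in joined entries that were not used. Neutrophil marker genes summed to 45.4, 384 and 631 FPKM in the vehicle samples and to 543, 1792 and 3064 FPKM in the DS-5272 samples, and all 7 of them had the higher mean with DS-5272. Macrophage markers summed to 62.9, 86.3 and 117 FPKM against 453, 204 and 265 FPKM, with the higher mean for all 9 of them. Most of the vehicle sum was Vcam1 (36.6, 64.1 and 82.8 FPKM) and Emr1 (16.7, 17.6 and 23.3 FPKM). After DS-5272, Vcam1 stood at 142.9, 74.8 and 85.7 FPKM and Emr1 at 59.8, 79.15 and 116.1 FPKM. C1qa, C1qb, C1qc, Cd5l, Siglec1, Mertk and Spic all peaked in DS-5272 replicate 1. In that group C1qa was 38.4, 6.92 and 6.64 FPKM, and Cd5l was 61.7, 1.76 and 4.43 FPKM. The 5 erythroid markers with an entry summed to 2.06 to 4.45 FPKM against 12.4 to 146 FPKM, the 4 of megakaryocytes and platelets to 1.68 to 2.08 FPKM against 4.32 to 6.95 FPKM, and the 7 of stroma and endothelium, mostly Pecam1, to 29.1 to 60.0 FPKM against 73.4 to 112 FPKM, each with the higher mean in DS-5272 samples. NK cell markers summed to 0.528 to 0.966 FPKM with vehicle and 1.57 to 3.67 FPKM with DS-5272, mostly Gzma (0.184 to 0.571 against 1.05 to 1.95 FPKM), with Eomes at or under 0.058 FPKM. T cell markers summed to 0.28 to 0.396 FPKM against 0.6 to 3.47 FPKM, where Cd4 was 3.28 FPKM in DS-5272 replicate 1 and Cd3e, Cd3d, Cd3g and Cd8a stayed at or under 0.341 FPKM in every sample. B cell markers summed to 4.29 to 5.02 FPKM against 3.39 to 4.29 FPKM, mostly Cd79b, with Ms4a1 and Pax5 at or under 0.055 FPKM. The paper reports that DS-5272 induced differentiation of the leukemia cells and raised VCAM-1 in those with c-Kit. Neutrophil genes and Vcam1 of other cells thus cannot be told apart here from those of the leukemia cells. The part of other cells and of differentiation in the results was not tested. Fewer cells of a type also cannot be told apart from less RNA per cell in bulk samples.

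Of the 10 genes, 9 had a higher mean FPKM in the DS-5272 group. The same 9 exceeded the same-numbered vehicle sample for all 3 replicate numbers, a pattern held by 33.4% of all 18149 genes with a value above 0. Spry1 was the exception. The ranges of the groups stood apart for 5 of the 10 genes (Dusp6, Dusp5, Dusp7, Dusp16 and Dusp4), all higher with DS-5272, and 24.9% of all genes had this pattern. The differences were largest in size for Dusp6, as the plot of FPKM by sample shows. Differences below are between group means of log2(FPKM + 1), a scale that understates the change of low genes, with the standard error (SE) from a limma fit across all genes.

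**Figure D1:**
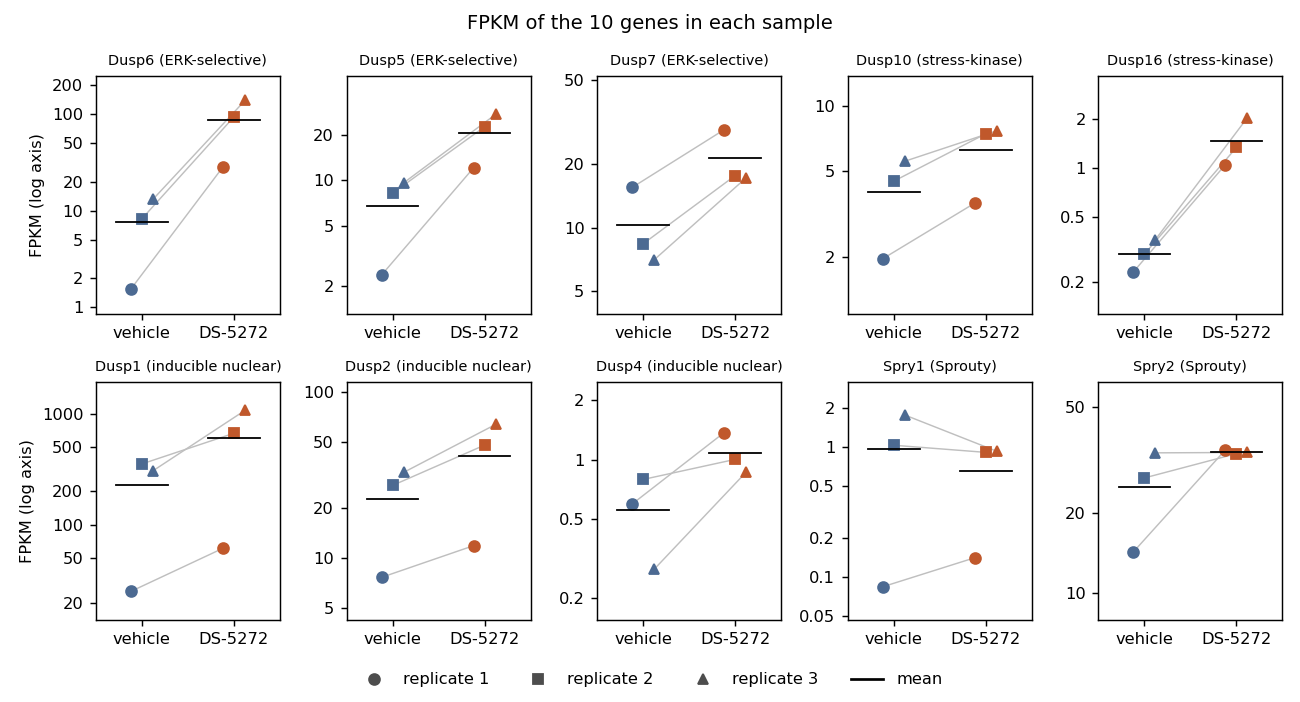
FPKM (log axis, a separate range in each panel) of the 10 genes in the 3 vehicle and the 3 DS-5272 samples, with a marker shape for each replicate number, grey lines between same-numbered samples and black lines at the group means. The mean of Dusp6 goes from 7.67 to 87.5 FPKM, replicate 1 is the lowest sample of both groups for 7 of the 10 genes, and it is the highest of both for Dusp7.

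Dusp6, which removes phosphates from ERK in the cytoplasm, lies at chr10:99263231-99267489 on the plus strand. It was 1.55, 8.28 and 13.2 FPKM with vehicle and 28.5, 94.3 and 139.6 FPKM with DS-5272. The groups did not overlap, although the lowest DS-5272 sample was replicate 1 and so was the lowest vehicle sample. The mean was 7.67 ± 5.84 FPKM (SD, n = 3) with vehicle and 87.5 ± 55.9 FPKM with DS-5272, 11.4 times as high. The log2 difference was 3.4 (SE 0.78), and within the pairs with the same number it was 3.53, 3.36 and 3.31. Dusp6 varied 8.52-fold within the vehicle group, while the ratios of these pairs were 18.4, 11.4 and 10.6.

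Dusp5, the nuclear ERK phosphatase with the paired CArG boxes, lies at chr19:53529145-53541809 on the plus strand. Its values were 2.35, 8.18 and 9.58 FPKM with vehicle and 12, 22.5 and 27.2 FPKM with DS-5272. As for Dusp6, replicate 1 was lowest in both groups and the groups did not overlap. The mean went from 6.70 ± 3.83 to 20.6 ± 7.77 FPKM, 3.07 times as high, with a log2 difference of 1.58 (SE 0.49). An exon of Dusp5 overlaps AC137853.2 on the other strand, and no source says that strand was used in counting, so its FPKM can include fragments of that gene.

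Dusp7, the other cytoplasmic ERK phosphatase, lies at chr9:106368560-106375724 on the plus strand. It was 15.5, 8.41 and 7.06 FPKM with vehicle and 29.2, 17.7 and 17.3 FPKM with DS-5272. Here replicate 1 was the highest sample of both groups, against the order of Dusp6 and Dusp5, and the groups again did not overlap. The mean went from 10.3 ± 4.56 to 21.4 ± 6.76 FPKM, 2.07 times as high, with a log2 difference of 1.01 (SE 0.31). The pair ratios were the most even of the 3 ERK-selective genes on the linear scale, at 1.88, 2.1 and 2.45.

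Dusp10, which acts on JNK and p38, lies at chr1:184034381-184075636 on the plus strand. Its values were 1.96, 4.49 and 5.56 FPKM with vehicle and 3.55, 7.46 and 7.70 FPKM with DS-5272. The groups overlapped, because DS-5272 replicate 1 lay below vehicle replicates 2 and 3. The mean was 4.0 ± 1.85 FPKM with vehicle and 6.24 ± 2.33 FPKM with DS-5272, and the log2 difference of 0.55 had an SE of 0.37. Without vehicle replicate 1 it was 0.21, and without DS-5272 replicate 1 it was 0.86.

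Dusp16, the other stress-kinase phosphatase, lies at chr6:134715468-134807063 on the minus strand. It was low in every sample, at 0.232, 0.298 and 0.366 FPKM with vehicle and 1.05, 1.34 and 2.04 FPKM with DS-5272. The groups did not overlap, and each group kept close together. The mean was 0.298 ± 0.067 FPKM with vehicle and 1.47 ± 0.508 FPKM with DS-5272, 4.94 times as high, the next largest ratio after that of Dusp6. On the log2(FPKM + 1) scale the difference was 0.91 (SE 0.15), and with a pseudocount of 0.1 it was 1.95. Its mean over the 6 samples was 0.886 FPKM, under the 1 FPKM needed to enter the limma fit, so its SE comes from the fit without that filter.

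The ERK-selective and stress-kinase phosphatases were then compared as classes, by the mean log2(FPKM + 1) of Dusp5, Dusp6 and Dusp7 and of Dusp10 and Dusp16. The ERK-selective class was 2.38, 3.22 and 3.41 with vehicle and 4.5, 5.12 and 5.38 with DS-5272. The stress-kinase class was 0.93, 1.42 and 1.58 against 1.61, 2.15 and 2.36. Every DS-5272 sample thus lay above every vehicle sample in both classes. The classes differed in the size of the step, 2.0 for the ERK-selective class and 0.73 for the stress-kinase class. Within a sample, the ERK-selective class exceeded the stress-kinase class by 1.69 ± 0.21 (SD, n = 3) with vehicle and by 2.96 ± 0.07 with DS-5272, a widening of 1.27. Without Dusp6 the widening was 0.56, and the order of the other genes depended on the scale. With a pseudocount of 1 the log2 difference of Dusp16 (0.91) lay below those of Dusp5 (1.58) and Dusp7 (1.01), and with a pseudocount of 0.1 that of Dusp16 (1.95) lay above those of Dusp5 (1.75) and Dusp7 (1.08), as did its ratio of means. The widening was 0.86 with a pseudocount of 0.1 and 1.07 when Dusp1, which also acts on JNK and p38, was counted with the stress-kinase class.

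**Figure D2:**
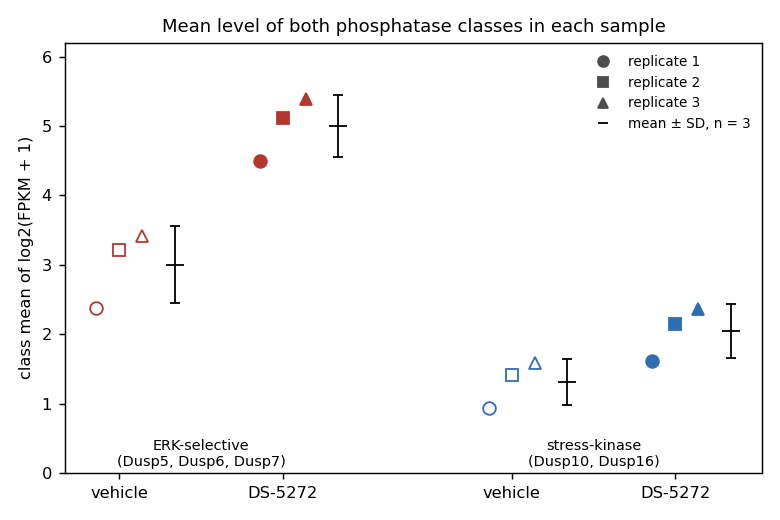
Mean log2(FPKM + 1) of the ERK-selective and the stress-kinase phosphatases in each sample, with open markers for vehicle, filled markers for DS-5272, a shape for each replicate number and bars for the mean ± SD (n = 3). The ERK-selective mean goes from 3.0 to 5.0 and the stress-kinase mean from 1.31 to 2.04.

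Dusp1, a nuclear phosphatase and an immediate early gene, was the most abundant of the 10 genes in both groups and lies at chr17:26505591-26508472 on the minus strand. It was 25.3, 354 and 307 FPKM with vehicle and 61.7, 667 and 1070.2 FPKM with DS-5272. Both replicates numbered 1 were far below the others, and DS-5272 replicate 1 lay below vehicle replicates 2 and 3. The range within a group was 14-fold with vehicle and 17.4-fold with DS-5272, against a ratio of group means of 2.62. The log2 difference was 1.32 with an SE of 1.36, whereas the ratios within the same-numbered pairs were 2.44, 1.89 and 3.49. Without vehicle replicate 1 the log2 difference was 0.11, and without DS-5272 replicate 1 it was 2.57. An exon of Dusp1 overlaps Ergic1 on the other strand.

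Dusp2, an inducible phosphatase known from blood cells, lies at chr2:127336159-127338377 on the plus strand. Its values were 7.63, 27.3 and 32.6 FPKM with vehicle and 11.8, 47.7 and 63.5 FPKM with DS-5272. Replicate 1 was again lowest in both groups, and the groups overlapped. The mean was 22.5 ± 13.2 FPKM with vehicle and 41.0 ± 26.5 FPKM with DS-5272, with a log2 difference of 0.76 (SE 0.73) and pair ratios of 1.55, 1.75 and 1.94. The log2 difference was 0.15 without vehicle replicate 1, 1.47 without DS-5272 replicate 1 and 0.31 without DS-5272 replicate 3.

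Dusp4, the third inducible nuclear phosphatase, lies at chr8:34807610-34819894 on the plus strand. It was 0.596, 0.793 and 0.280 FPKM with vehicle and 1.37, 1.0 and 0.865 FPKM with DS-5272. The groups did not overlap, but the highest vehicle and the lowest DS-5272 value lay close together, and replicate 1 was not the lowest in either group. The log2 difference was 0.42 (SE 0.15), and with a pseudocount of 0.1 it was 0.91. With a mean of 0.817 FPKM over the samples, Dusp4 did not pass the filter.

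Spry2, which inhibits signalling from receptor tyrosine kinases, lies at chr14:105891947-105896819 on the minus strand. It was 14.3, 27.2 and 33.8 FPKM with vehicle and 34.6, 33.5 and 33.9 FPKM with DS-5272. The DS-5272 samples were nearly identical and vehicle replicate 3 stood at their level, so the groups overlapped. The mean was 25.1 ± 9.89 FPKM with vehicle and 34 ± 0.568 FPKM with DS-5272, a log2 difference of 0.51 (SE 0.28). Vehicle replicate 1 decided this value, since the difference was 0.16 without it.

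Spry1, its relative, lies at chr3:37639947-37644599 on the plus strand and has an exon that overlaps Gm42922 on the other strand. It was 0.084, 1.04 and 1.78 FPKM with vehicle and 0.140, 0.915 and 0.933 FPKM with DS-5272. Spry1 was thus low throughout, and the only member with a lower mean in the DS-5272 group (0.663 ± 0.452 against 0.967 ± 0.849 FPKM). The log2 difference of -0.18 was smaller than its SE of 0.39, and it was 0.12 without vehicle replicate 3 and 0.07 without DS-5272 replicate 1. Its mean of 0.815 FPKM was under the filter.

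The order of levels changed between the groups. In vehicle samples, Dusp1 (228 FPKM) was followed by Spry2 (25.1), Dusp2 (22.5), Dusp7 (10.3), Dusp6 (7.67), Dusp5 (6.70) and Dusp10 (4.0), and then by Spry1 (0.967), Dusp4 (0.556) and Dusp16 (0.298). Among neighbours in this order, the only pair whose samples did not overlap was Dusp10 and Spry1. In DS-5272 samples, Dusp6 moved from place 5 to place 2, with Dusp1 at 599.5 FPKM, Dusp6 at 87.5, Dusp2 at 41.0, Spry2 at 34, Dusp7 at 21.4, Dusp5 at 20.6 and Dusp10 at 6.24. Dusp16 (1.47) moved from place 10 to place 8, ahead of Dusp4 (1.08) and Spry1 (0.663). Here the neighbours without overlap were Spry2 and Dusp7, Dusp5 and Dusp10, and Dusp10 and Dusp16.

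Of the 10 genes, 7 passed the filter of a mean of at least 1 FPKM and 3 (Dusp4, Dusp16 and Spry1) did not. The limma fit put 3 of the 7 (Dusp5, Dusp6 and Dusp7) past the adjusted threshold of 0.05 as higher with DS-5272 and none as lower, where 24.2% of 11130 tested genes were higher and 22% were lower. Without the filter, Dusp5 and Dusp7 no longer passed and 2 of the 10 genes (Dusp6 and Dusp16) did, where 14.6% of 18149 genes were higher. The median log2 difference was 1.01 over the 7 genes and 0.04 over all tested genes, and without the filter it was 0.84 over the 10 genes and 0.01 over all. The genes were chosen from this comparison, so neither the count nor the median supports anything about them. With the replicate number as a block, 6 of the 7 (all but Spry2) were past the threshold, where 30.3% of tested genes were higher. Without replicate 1 of both groups it was also 6 of the 7, where 22.4% were higher. The labels name no pairing, and the match of replicates 2 and 3 is uncertain, so counts with the block are uncertain too. Rescaling to a common total per sample (TPM) shifted the median of all tested genes from 0.04 to -0.21, and it changed the split of higher and lower calls from 2697 and 2451 to 1717 and 3536. The 9 genes stayed higher in the mean under this rescaling, with log2 differences of 3.29 for Dusp6, 1.42 for Dusp5, 0.79 for Dusp7, 0.37 for Dusp10 and 0.25 for Spry2, and Spry1 was at -0.36.

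**Figure D3:**
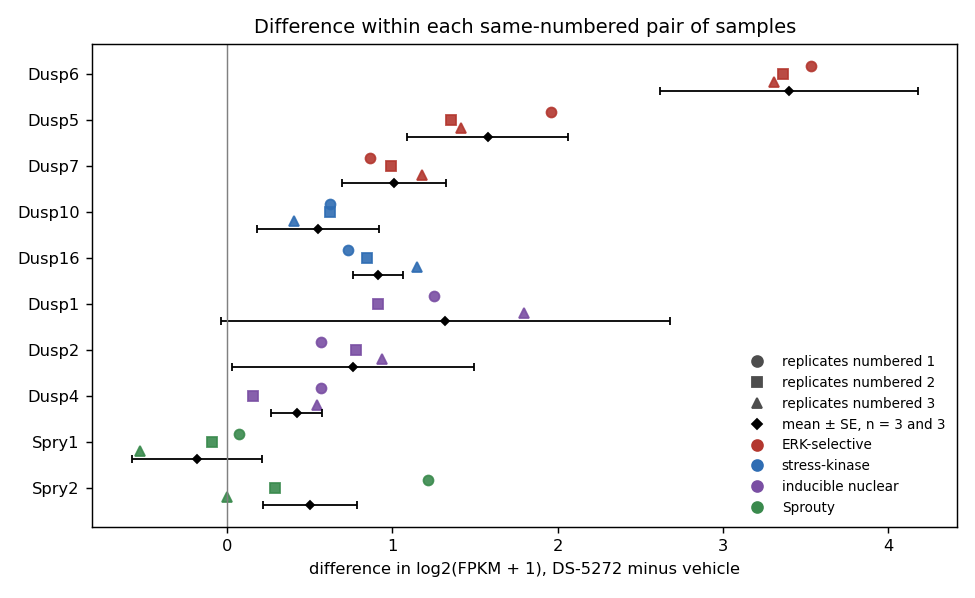
Difference in log2(FPKM + 1), DS-5272 minus vehicle, for each gene within the 3 same-numbered pairs of samples (coloured markers, a shape for each number) and between the group means (black diamonds, bars ± SE from the fit without the replicate block, n = 3 and 3). The 3 pairs of Dusp6 sit between 3.31 and 3.53 although its SE is 0.78, and those of Spry1 lie on both sides of 0.

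Replicate 1 stood apart from replicates 2 and 3 for most of these genes in both groups, a pattern within the groups that their means do not show. It was the lowest sample of the vehicle group and of the DS-5272 group for 7 of the 10 genes (Dusp1, Dusp2, Dusp5, Dusp6, Dusp10, Dusp16 and Spry1), as for 20.8% of all genes with a value above 0. It was the highest of both for Dusp7 alone, as for 20% of all genes. Replicate 1 minus the mean of replicates 2 and 3 on the log2(FPKM + 1) scale was -3.65 with vehicle and -3.75 with DS-5272 for Dusp1, -1.84 and -2.13 for Dusp2, -2.17 and -1.97 for Dusp6, and -1.56 and -0.98 for Dusp5. Dusp10 had -1.02 and -0.92, while Dusp7 had 0.93 and 0.71. Over all tested genes, the mean of the group values had a median of -0.03, with percentiles 5 and 95 at -0.59 and 0.46. Each of these 6 genes lay outside that range, 5 below it and Dusp7 above it.

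For these genes the shift had a like size in both groups. For Dusp6, treatment accounted for 74.0% of the variation over the 6 samples and the replicate number for 25.9%. For Dusp1 the shares were 12.4% and 86.7%, for Dusp2 14% and 85.4%, and for Dusp10 26.2% and 72.9%. Dusp16 was at the other end, with 87.5% for treatment and 9.20% for the replicate number. Over all tested genes the medians were 67.2% for treatment and 19.1% for the replicate number. The SE of the log2 difference fell accordingly with the replicate block, from 0.78 to 0.10 for Dusp6, from 1.36 to 0.17 for Dusp1 and from 0.73 to 0.11 for Dusp2. For Spry2, whose replicate 1 was low with vehicle only, it went from 0.28 to 0.23. Without replicate 1 of both groups the log2 differences were 3.34 for Dusp6, 1.39 for Dusp5, 1.36 for Dusp1, 1.09 for Dusp7, 0.86 for Dusp2 and 0.52 for Dusp10, and 0.15 for Spry2. The neutrophil marker sum was also lowest in replicate 1 of both groups, and the erythroid sum (4.45 and 146 FPKM) was highest there. The stroma and endothelium sum (60.0 and 112 FPKM) was highest there too, nearly all of it Pecam1 (58.8 and 109 FPKM). Col1a1 and Lepr of the same list were instead lowest there. Col1a1 was 0.94 against 2.2 and 2.4 FPKM with vehicle and 2.2 against 4.5 and 5.5 FPKM with DS-5272. Vehicle replicate 1 was the deepest library, and DS-5272 replicate 1 (relative depth 0.746) was the deepest of its group. The part of cell makeup, differentiation and depth in this pattern was not tested, and the labels do not say what the replicate numbers stand for.

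**Figure D4:**
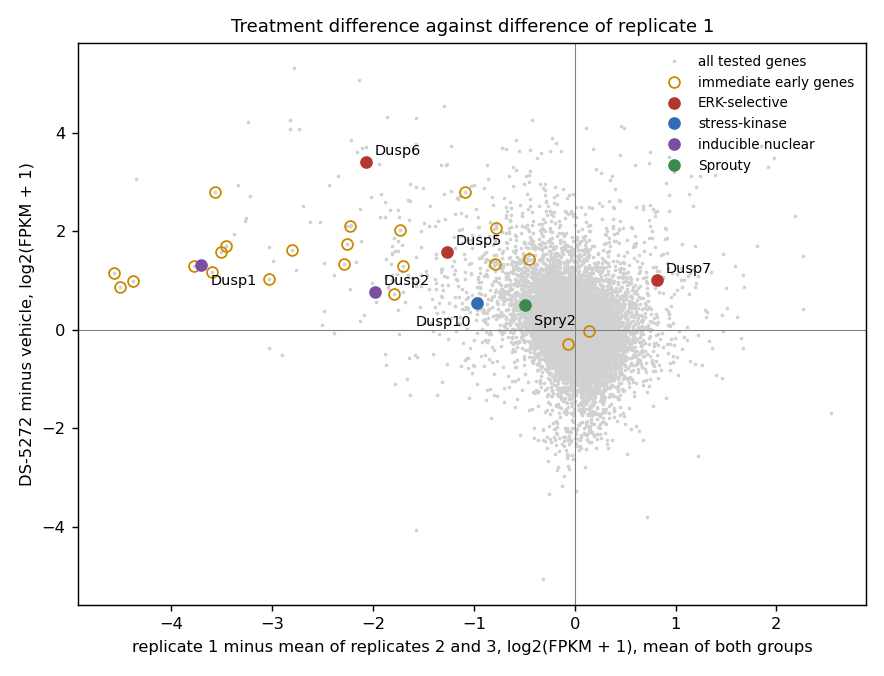
For all 11130 tested genes (grey), the treatment difference in log2(FPKM + 1) against the difference of replicate 1 from the mean of replicates 2 and 3, averaged over both groups. Open circles are the tested immediate early genes and coloured points the 7 members that passed the filter. Dusp1, Dusp2, Dusp6, Dusp5 and Dusp10 lie left of most genes at a positive treatment difference, and Dusp7 lies to the right.

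The genes most like Dusp1 and Dusp6 were found by Pearson's correlation of log2(FPKM + 1) after subtracting the group means, over the 6 samples and 11123 genes. High values were common: 10.9% of the genes were above 0.9 for Dusp1 and 10.5% for Dusp6. The closest to Dusp1 were the entry LOC100862171 (r = 0.9999), Cep63 (0.9992), a centrosome gene, and Rpsa (0.9991), a ribosomal protein gene. Dusp1 was 3.19 to 3.5 times as high as LOC100862171 in every sample, so both entries may share reads and the value of that entry is uncertain. The closest to Dusp6 were Gm16023 (0.9991), the joined entry of Mir3091 and Rps21 (0.9985) and 1190002H23Rik (0.9982). Cep63 varied far less than Dusp1, from 12.7 to 15.7 FPKM with vehicle and from 8.85 to 11.1 FPKM with DS-5272. Among the members, Dusp1, Dusp2, Dusp5, Dusp6 and Dusp10 had values of 0.96 to 0.99 with each other and of -1.0 to -0.97 with Dusp7. These are descriptions over samples that share the same contrast between replicate 1 and the rest.

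The other genes of the MAP kinase pathways were described in 7 lists with 119 genes, of which 115 had an entry of their own and 92 were tested. Among these 92 genes, 31 rose and 6 fell at an adjusted p under 0.05 from limma, with a median log2 difference of 0.50. These are 33.7% and 6.52%, beside 24.2% higher and 22% lower over all tested genes. With the replicate block 52 rose and 6 fell (56.5% and 6.52%, beside 30.3% and 24.9% over all). Leaving out vehicle replicate 1, 2 or 3 gave 19, 18 and 20 that rose and 2, 1 and 2 that fell. Over all 11130 tested genes the same fits gave 1940, 1623 and 1799 higher and 1664, 1389 and 1492 lower. After rescaling to a common total 18 rose and 10 fell, where 1717 of all 11130 tested genes were higher and 3536 lower. The split thus depends on the scaling, in the lists and over all genes.

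The remaining MAP kinase phosphatases did not pass in either direction. Of 6 genes, 2 were tested. Dusp8, which acts on JNK and p38, was 0.014, 0.569 and 0.467 FPKM with vehicle and 0.087, 2.03 and 2.89 FPKM with DS-5272, with replicate 1 again lowest in both groups. Its log2 difference was 0.82 (adjusted p = 0.194 from limma, 0.0418 with the replicate block). Dusp8 was under 1 FPKM in every vehicle sample, so it entered the test only through the DS-5272 group. Ptpn7, a phosphatase of ERK and p38 in blood cells, was abundant at 144 ± 11.7 FPKM with vehicle and 154 ± 15.4 FPKM with DS-5272 (log2 difference 0.09, SE 0.12, adjusted p = 0.542 from limma). Dusp9, an ERK phosphatase related to Dusp6, was under the filter and had lower values with DS-5272 (0.268 to 0.433 FPKM) than with vehicle (0.644 to 0.969 FPKM). Ptpn5, Ptprr and Styxl1 were at or under 0.116 FPKM in every sample.

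Of the 15 atypical dual-specificity phosphatases, 9 were tested, 2 rose and 2 fell, which is 22.2% in each direction and near the shares of all tested genes. Dusp3, which can act on ERK and JNK, rose from 6.40 ± 1.23 to 15.8 ± 0.663 FPKM (log2 difference 1.19, SE 0.14, adjusted p = 0.0024 from limma). Dusp22, known as a phosphatase of the JNK pathway, rose from 9.18 ± 0.392 to 14.8 ± 2.1 FPKM (log2 difference 0.63, adjusted p = 0.0080). Dusp28 fell from 4.54 ± 0.661 to 2.27 ± 0.568 FPKM (log2 difference -0.77, adjusted p = 0.0115), and Dusp23 fell from 6.02 ± 0.152 to 4.72 ± 0.238 FPKM (adjusted p = 0.0458, 0.0597 with the replicate block, which ends the call). When each sample was left out in turn, Dusp23 missed the threshold in 5 of 6 fits and Dusp28 in 1.

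Of the 9 other Sprouty, SPRED and receptor-level inhibitors with an entry, 6 were tested, 4 rose and none fell. The 4 are 66.7% of the tested genes of the list, beside 24.2% higher and 22% lower over all. Dok2, an adaptor that restrains RAS in myeloid cells, rose from 5.74 ± 0.531 to 22.4 ± 5.04 FPKM (log2 difference 1.78, SE 0.17, adjusted p = 0.00134 from limma). Dok3 rose from 119 ± 5.07 to 199 ± 46.2 FPKM (0.71, adjusted p = 0.0145), though leaving out vehicle replicate 1 or 2 ended this call (0.0502 and 0.0519 as adjusted p). Dok1 rose from 15.8 ± 1.22 to 23.6 ± 1.58 FPKM (0.55, adjusted p = 0.00712). Errfi1, an inhibitor of the EGF receptor, rose from 7.47 ± 3.11 to 17.0 ± 5.90 FPKM (1.11, adjusted p = 0.0392), a call that was lost in 4 of 6 leave-one-out fits. Spred1 and Spred2, which bring neurofibromin to RAS, did not pass, with log2 differences of 0.55 (adjusted p = 0.0736) and 0.26 (adjusted p = 0.355), though Spred1 passed with the replicate block (adjusted p = 0.0374). Spred3 was under the filter, at 0.182 to 0.316 FPKM with vehicle and 0.710 to 2.17 FPKM with DS-5272. Spry4 was at or under 0.033 FPKM and Il17rd was listed at 0 in every sample, so Spry2 was the most abundant of the Sprouty genes with an entry.

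Of the 27 tested genes of the RAS to ERK cascade, 11 rose and 1 fell. These are 40.7% and 3.7%, beside 24.2% and 22% over all tested genes. The median log2 difference was 0.29, and 0.06 after rescaling to a common total, beside 0.04 and -0.21 over all tested genes. Rasgrp4, a RAS activator of myeloid cells, rose from 21.1 ± 3.11 to 71.3 ± 21.8 FPKM (1.68, SE 0.23, adjusted p = 0.00333 from limma). Mknk1, a kinase that ERK and p38 activate, rose from 25.2 ± 1.89 to 57.2 ± 13 FPKM (1.13, adjusted p = 0.00394), and Rasa3, a RAS-inactivating protein, from 45.0 ± 1.61 to 78.8 ± 15.6 FPKM (0.78, adjusted p = 0.00739). Ptpn11, a phosphatase needed for RAS activation, fell from 23.0 ± 1.51 to 18.7 ± 0.945 FPKM (-0.28, adjusted p = 0.0482), and this call was lost with the replicate block (adjusted p = 0.0531) and in all 6 leave-one-out fits. Mapk3, which encodes an ERK itself, did not pass, with a log2 difference of 0.59 (adjusted p = 0.0540), and passed with the replicate block (adjusted p = 0.0149).

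Of the 22 tested genes of the JNK and p38 cascade, 8 rose and 3 fell. These are 36.4% and 13.6%, beside 24.2% and 22% over all tested genes. After rescaling to a common total 2 rose and 6 fell, where 1717 of all 11130 tested genes were higher and 3536 lower. Map3k8, a kinase that also feeds the ERK cascade, rose from 4.65 ± 1.66 to 15.4 ± 5.75 FPKM (log2 difference 1.53, SE 0.32, adjusted p = 0.0105 from limma). Map3k5, a stress-activated kinase, rose from 2.33 ± 0.329 to 5.4 ± 1.57 FPKM (0.92, adjusted p = 0.0107), and its relative Map3k6 fell from 11 ± 1.01 to 4.66 ± 0.744 FPKM (-1.09, adjusted p = 0.00263). Mapkapk3 and Map3k7 also fell, by 0.33 and 0.27 on the log2 scale, calls that were lost in 3 and 5 of 6 leave-one-out fits, and that of Map3k7 also with the replicate block (adjusted p = 0.0604).

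Transcripts known to follow ERK activity and immediate early genes were the lists with the highest medians, at 1.28 and 1.34. Etv5, an ETS factor induced by ERK, rose from 0.244 ± 0.0165 to 1.88 ± 0.507 FPKM (1.19, SE 0.17, adjusted p = 0.00394 from limma). It was under 1 FPKM in every vehicle sample, so it passed the filter only through the DS-5272 group. Epha2, at a mean of 0.813 FPKM with vehicle and 5.48 FPKM with DS-5272, also reached the filter only through that group. The list median of 1.28, over 4 tested of 8 listed genes, is thus partly set by the filter. Etv1 and Ccnd1 of this list also had higher values with DS-5272 without overlap, but were under the filter. Etv5 was 1 of 4 tested genes of its list to pass (25%, beside 24.2% higher over all). Phlda1 and Fosl1 passed as well with the replicate block (adjusted p = 0.00198 and 0.0141) and without replicate 1 of both groups. With the block this is 75% of the tested genes of the list, beside 30.3% over all. Of 22 tested immediate early genes, 5 rose and none fell, where 24.2% of all tested genes were higher and 22% lower. The 5 are 22.7% of the tested genes of this list. Zfp36l1, which promotes mRNA decay, rose from 3.54 ± 1.85 to 32.3 ± 17.0 FPKM (2.81, adjusted p = 0.00525). Fosl2, an AP-1 subunit, rose from 7.78 ± 2.4 to 36.3 ± 13.9 FPKM (2.06, adjusted p = 0.00458). Nr4a1, an orphan nuclear receptor, rose from 14.5 ± 8.15 to 63.0 ± 35.2 FPKM (2.03, adjusted p = 0.0386), a call that was lost in 4 of 6 leave-one-out fits. Egr2 and Egr3 also rose. Egr3 was under 1 FPKM in every vehicle sample, so it too passed the filter only through the DS-5272 group. With the replicate block 18 rose (81.8%, beside 30.3% over all tested genes). Without replicate 1 of both groups 19 rose, where 22.4% of all tested genes were higher. Like Dusp1 and Dusp2, 21 of the 23 immediate early genes were lowest in replicate 1 of both groups, with a median difference from replicates 2 and 3 of -2.65 with vehicle and -2.15 with DS-5272. Fos, for one, was 26.3, 456 and 465 FPKM with vehicle and 138, 909 and 1233 FPKM with DS-5272.

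**Figure D5:**
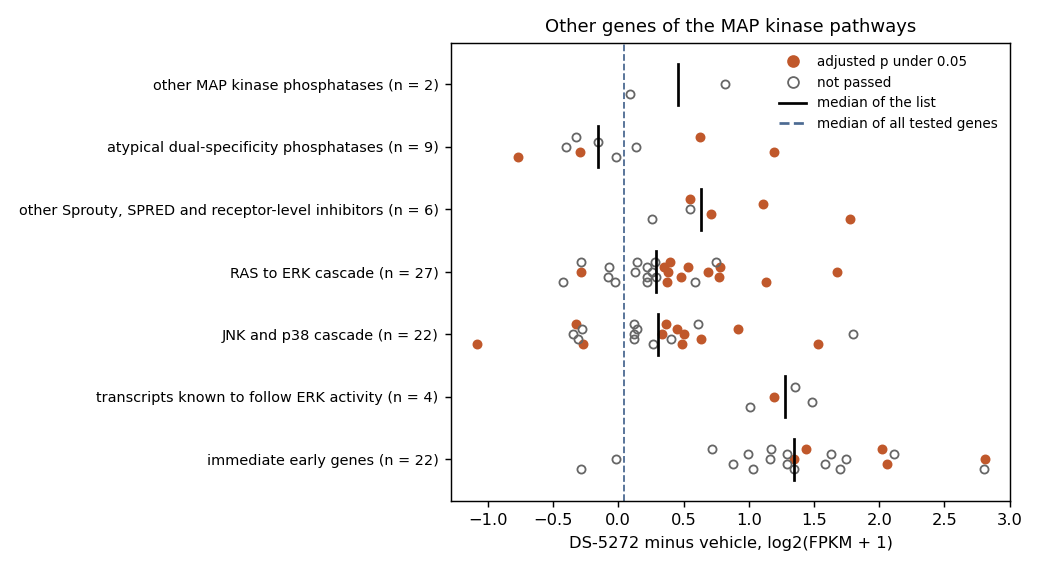
Difference in log2(FPKM + 1), DS-5272 minus vehicle, of the 92 tested genes of the 7 lists, with filled points for genes at an adjusted p under 0.05, black lines at the list medians and a dashed line at the median of all tested genes (0.04). The lists of immediate early genes (1.34) and of transcripts known to follow ERK activity (1.28) have the highest medians, and that of atypical phosphatases (-0.16) lies below the dashed line. The median of 1.28 is over 4 tested genes, of which Etv5 and Epha2 passed the filter only through the DS-5272 group.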

How the data were processed

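RNA-Seq libraries were made with a strand-specific kit from leukemia cells of 3 vehicle and 3 DS-5272 samples. The authors trimmed reads with cutadapt 1.8.1, aligned them to GRCm38 transcripts with TopHat 2.1.1 and derived the deposited FPKM values with Cufflinks 2.2.1, so no counts per gene are given and no count model was used. Depth is given only on a relative scale. In a table of 26632 lines, those of 435 repeated names were added up, and 433 lines that join several genes were kept. Samples were grouped by the treatment label. A moderated two-sided test of limma 3.58.1 in R 4.3.3, with a variance trend, was run on log2(FPKM + 1) for the 11130 genes averaging 1 FPKM or more, with Benjamini-Hochberg adjustment over these genes and a threshold of 0.05. It was tested on simulated data. The members and lists were chosen with earlier results of these data known.

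Replicate numbers are shared between the groups. Deviations from the group means correlated by 0.66, 0.21 and 0.43 between same-numbered samples, all above 0.1, and by -0.58 to 0.34 between others. Same-numbered samples were therefore treated as pairs for the pair differences and the replicate block, although the labels name no pairing. The main limma fit used the treatment label alone, without pairs. Vehicle replicate 2 correlated more with DS-5272 replicate 3 (0.34) than with DS-5272 replicate 2 (0.21). The match of replicates 2 and 3 is thus uncertain, and results by pairs or with the block rest on it. Named list genes were the 3 largest changes past the threshold in a list and the largest in the other direction, and every member of the phosphatase and Sprouty lists. Dusp23, Mapk3, Mapkapk3, Map3k7, Egr2, Egr3, Phlda1, Fosl1, Epha2 and Fos were chosen after their values were seen. Of the list genes, 114 had an entry under their own symbol, 1 under an older symbol, 3 lay in joined entries and 1 had no entry. Gene positions are from RefSeq and exon overlaps from GENCODE. Plots were drawn with matplotlib 3.10.9 (Python 3.11.15, pandas 2.3.3, numpy 2.4.6). Alternatives were another pseudocount, filter, scaling, trend or handling of repeated symbols, the replicate block, a minimum fold and leaving out each sample, and, chosen after seeing the data, leaving out replicate 1 of both groups.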

Additional observations from a re-analysis of the deposited data

How the results depend on the processing

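Under all alternatives run, 9 or 10 of the 10 genes kept a higher mean with DS-5272, and only Spry1 changed sign. Over these alternatives the log2 difference ranged from 2.68 to 4.06 for Dusp6, from 1.06 to 1.91 for Dusp5, from 0.78 to 1.32 for Dusp7 and from 0.11 to 2.57 for Dusp1, the last set by which replicate 1 was left out. The excess of the ERK-selective over the stress-kinase step (1.27) was 0.86 with a pseudocount of 0.1, 1.09 after rescaling to a common total, 1.07 with Dusp1 in the stress-kinase class and, chosen after seeing the data, 0.56 without Dusp6, and 1.14 to 1.34 when a sample was left out. Rescaling to a common total gave 1717 higher and 3536 lower genes of all tested, and 18 higher and 10 lower pathway genes. Requiring a log2 difference of at least 1 left 978 higher and 621 lower genes, and 12 higher and 1 lower pathway genes. With the replicate block 52 pathway genes were higher, and without replicate 1 of both groups 3 were lower. Leaving out 1 sample gave 1623 to 2934 higher and 1389 to 2432 lower genes, lowest without vehicle replicate 2 (and 1492 lower without vehicle replicate 3). For the pathway genes it gave 18 to 39 higher and 1 to 5 lower, with 19, 18 and 20 higher and 2, 1 and 2 lower without vehicle replicates 1, 2 and 3. The fits without a sample have fewer samples by construction, and the cause of the other shifts was not tested. The block left each log2 difference as it was, and of the genes with a printed p it changed no other call than those given in the report. Over the alternatives run for each of the named list genes, a call was lost 44 times and gained 17 times, and only Ptpn7, which was not called, changed sign, to -0.017 with a common upper quartile, -0.17 with a common total and -0.23 with quantile normalization. Depth limits Dusp4, Dusp16 and Spry1, which lie near or under 1 FPKM. With 3 samples a group no outlier test was run.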
